A study of Homo sapiens with 8 samples.

Results

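The genes described here encode fibronectin, the subunits of the integrins and the chains of the laminins. They were taken by symbol from the deposited table: FN1, every gene named ITGA or ITGB followed by a subunit code, and every gene named LAMA, LAMB or LAMC followed by 1 digit. The 38 of 19583 rows reported here are 18 integrin alpha subunits, 8 integrin beta subunits, 11 laminin chains and fibronectin. Of the 38, 24 passed a minimum mean of 1 normalised read count over the 8 libraries, as did 12645 rows in all. RNA was sequenced from MDA-MB-231, a human breast cancer line with a mesenchymal form that is used as a model of invasive disease. The libraries fell into 4 groups of 2: labelled as carrying a short hairpin RNA against CHD4 (shCHD4) and kept at 1% O2, shCHD4 at 20% O2, labelled with the control hairpin (shSC) at 1% O2, and shSC at 20% O2. All cells grew in DMEM with serum and were held at their O2 level for 24 hours. CHD4 is the motor subunit of the NuRD chromatin complex, and the study addressed its part in the activity of the hypoxia-inducible factors (HIFs). The labels name 1 cell line and give neither a clone nor a hairpin sequence. They also do not state whether paired libraries came from different culture dishes, so the spread behind each p-value may be purely technical.

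Integrins are receptors made of an alpha and a beta subunit that span the membrane and tie the extracellular matrix to the actin cytoskeleton. The alpha subunit largely sets which ligand is bound: some pairs read the RGD peptide of fibronectin and vitronectin, others bind laminins or collagens, and a further set is used by leukocytes. Laminins are the main adhesive proteins of basement membranes and are assembled from an alpha, a beta and a gamma chain. In breast cancer cells, integrins and their matrix ligands are studied for their roles in attachment, migration and invasion, and low oxygen is a common state of solid tumours.

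The libraries held 24947627 to 31903585 reads assigned to genes, with 4.04% to 5.02% of reads on the top 10 genes. The table's values were reads divided by a single factor per library, with no correction for gene length, and are called normalised read counts. CHD4 had 299.1 and 286.9 normalised read counts at 1% O2 and 293.4 and 304.6 at 20% O2 under the shCHD4 label, against 279.7 and 278.2 at 1% O2 and 298.9 and 298.2 at 20% O2 under the shSC label. The RNA of the targeted gene was therefore not lower in the libraries labelled shCHD4, and each difference between labels below is one between libraries that bear these labels. The mesenchymal gene VIM had 5501 to 6856 normalised read counts in the shCHD4 libraries and 3471 to 5787 in the shSC libraries. The other mesenchymal markers did not all go this way. CD44 was lower under shCHD4, at 732.0 to 816.5 against 1248 to 1421 under shSC. AXL overlapped, at 1439 to 1504 under shCHD4 and 1293 to 1501 under shSC, and SPARC had 6.08 to 6.56 and 0.372 to 0.572. The epithelial gene CDH1 and the receptors ESR1 and PGR stayed at or below 0.331. The receptor ERBB2 had 50.4 to 54.1 under shCHD4 and 35 to 41.6 under shSC. The 6 epithelial markers, 2 of them with a mean under 1, summed to 481.8 to 538.7 under shCHD4 and 412.2 to 479.0 under shSC, mostly through the keratins KRT18 and KRT8. They did not move together. KRT8 had 211.5 to 243.1 under shCHD4 and 85.9 to 124.5 under shSC, and KRT18 overlapped, at 212.2 to 257.3 and 210.8 to 251.7. KRT19, EPCAM and ESRP1 were lower under shCHD4, at 30.8 to 52.1, 4.17 to 5.43 and 0.412 to 0.486. Under shSC they had 58.9 to 137.2, 6.29 to 7.56 and 0.891 to 1.43. Marker sums of other cell types differed between labels. The 4 endothelial markers, 2 of them with a mean under 1, summed to 6.17 to 7.81 in the shCHD4 libraries and 15.3 to 17.7 in the shSC libraries, mostly through KDR. The 4 fibroblast markers, 3 of them with a mean under 1, summed to 4.5 to 5.62 under shCHD4 and 2.04 to 3.01 under shSC. The 4 leukocyte markers in the table summed to 121.1 to 125.8 under shCHD4 and 112.8 to 124.8 under shSC, nearly all from CD68, and the defining leukocyte gene PTPRC was at or below 0.636 throughout. The part of these markers in the differences between labels was not tested, and in RNA from whole cultures fewer cells of a kind and less RNA per cell cannot be told apart.

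Per kilobase of the longest coding transcript, ITGB1, the beta subunit shared by most integrin pairs, was the most abundant member in each of the 4 groups. Its mean was 661.9 normalised read counts per kb in shCHD4 libraries at 1% O2 and 581.2 at 20% O2, against 627.8 and 533.2 in the shSC libraries at 1% and 20% O2. The laminin receptor subunit ITGA3 had 211.6 per kb under shCHD4 and 245.9 per kb under shSC at 1% O2. LAMB3, a chain of the laminin that anchors epithelia, had 202.0 and 275.5 per kb in the same groups, so the order of these genes differed between the groups, and per kb of all exons LAMB3 stood above ITGA3 in each of the 4 groups. ITGB1 took 92.5% and 93.8% of the reads per kb of all beta subunits in shCHD4 libraries at 1% and 20% O2, and 91% and 92.2% in shSC libraries. At the other end, 14 members did not pass the filter, with at most 0.813 normalised read counts in any library (ITGA7): ITGA2B, ITGA4, ITGA7, ITGA8, ITGA9, ITGA11, ITGAD, ITGAL, ITGAM, ITGAX, ITGB6, ITGB7, LAMB4 and LAMC3. They each held between 2 and 92 reads over the 8 libraries together and were not tested. Among them are ITGAL, ITGAM, ITGAX and ITGAD, the alpha subunits of the leukocyte integrins.

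**Figure D1:**
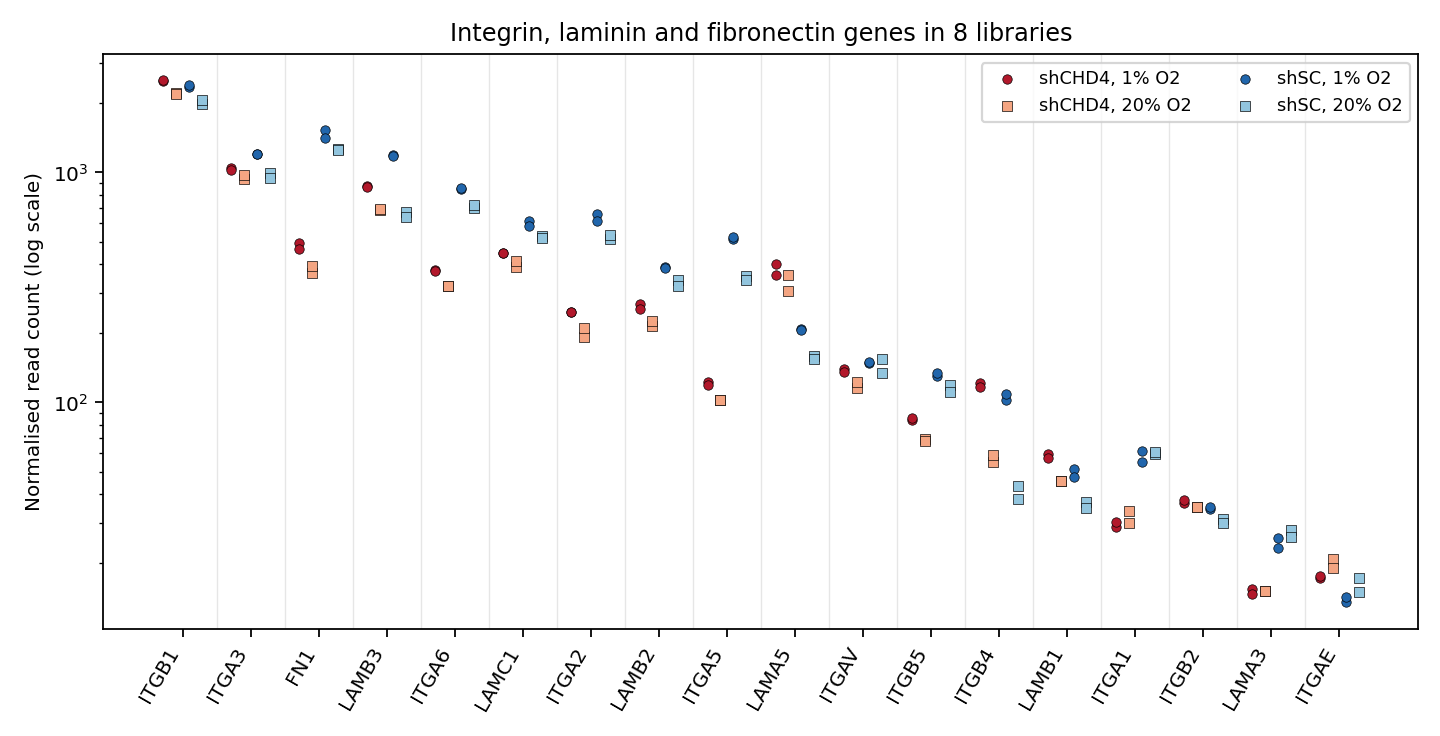
Normalised read count (log scale) of the 18 members with a mean of at least 10 that passed the test in at least 1 comparison, in order of mean, with each point 1 library; circles are 1% O2 and squares 20% O2, red shades the shCHD4 label and blue shades the shSC label. FN1, ITGA6, ITGA2 and ITGA5 lie far lower in the shCHD4 libraries, LAMA5 lies higher there, and ITGB4 separates by O2 level.

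For sequence context, promoter windows from 250 bases before to 50 bases after the start were taken from RefSeq (GRCh38.p14), in which 27 of the 38 members had an entry. The HIF core motifs ACGTG and GCGTG, read on both strands, were found in 2 (7.41%) and 10 (37%) of the 27 windows, against 21.6% and 36.3% of 27305 promoters. Either core was in 11 windows (40.7%), against 48.4% of all promoters, and the AP-1 motif TGANTCA was in 2 (7.41%), against 7.76%. Of the 4 members whose response to O2 differed between the labels, ITGB4 had no entry, and ITGB8 had 2 GCGTG matches and is not shown. Shown here are the other 2, ITGA5 and LAMB3, and ITGA6, the window with the most HIF core matches (3, of which 2 overlap on opposite strands). Capitals mark HIF cores, which read CACGT or CACGC on the reverse strand, and the AP-1 match; the LAMB3 window holds neither. They lie at chr12:54419217-54419516 (ITGA5, minus strand), chr2:172427086-172427385 (ITGA6, plus strand) and chr1:209652376-209652675 (LAMB3, minus strand), a build other than the hg19 of the counts. A match is a string of letters and not a measured site.
ITGA5: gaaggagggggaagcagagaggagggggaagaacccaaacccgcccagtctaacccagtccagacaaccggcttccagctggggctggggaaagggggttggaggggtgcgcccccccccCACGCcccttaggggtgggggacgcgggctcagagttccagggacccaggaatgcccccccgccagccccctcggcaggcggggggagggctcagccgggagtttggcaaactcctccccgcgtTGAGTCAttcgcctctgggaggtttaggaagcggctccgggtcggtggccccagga
ITGA6: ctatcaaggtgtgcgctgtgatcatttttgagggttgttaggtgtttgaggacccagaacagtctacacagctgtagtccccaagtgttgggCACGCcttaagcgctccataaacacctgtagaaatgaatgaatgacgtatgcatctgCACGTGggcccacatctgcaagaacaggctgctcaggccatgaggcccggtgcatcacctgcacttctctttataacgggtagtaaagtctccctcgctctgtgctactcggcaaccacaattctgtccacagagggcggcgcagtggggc
LAMB3: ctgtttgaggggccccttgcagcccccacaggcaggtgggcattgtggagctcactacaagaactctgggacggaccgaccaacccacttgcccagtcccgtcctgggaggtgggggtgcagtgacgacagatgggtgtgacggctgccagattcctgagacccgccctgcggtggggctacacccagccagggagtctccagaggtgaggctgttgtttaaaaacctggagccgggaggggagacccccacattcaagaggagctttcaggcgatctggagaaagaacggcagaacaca

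Fibronectin itself separated by label. FN1 had 493.1 and 466.0 normalised read counts at 1% O2 and 366.3 and 393.4 at 20% O2 under the shCHD4 label, against 1530.1 and 1407 at 1% O2 and 1269.8 and 1251 at 20% O2 under the shSC label. All 4 shCHD4 libraries were below all 4 shSC libraries, and under each label both 1% libraries were above both 20% libraries. ITGA5, which pairs with ITGB1 to form the main fibronectin receptor, had 123.0 and 119.3 at 1% O2 and 102.1 and 102.9 at 20% O2 under shCHD4. Under shSC it had 513.8 and 524.9 at 1% O2 and 355.2 and 340.7 at 20% O2. The 4 groups did not overlap, and the step between O2 levels was the larger under shSC.

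The other RGD-binding subunits differed less between labels. ITGAV, the alpha partner of several beta subunits, had 140.3 and 136.2 normalised read counts at 1% O2 and 116.0 and 123.1 at 20% O2 under shCHD4, against 149.0 and 150.0 at 1% O2 and 133.6 and 153.7 at 20% O2 under shSC. The 2 O2 groups overlapped under shSC but not under shCHD4. ITGB5, a vitronectin receptor subunit with ITGAV, had 83.6 and 85.1 at 1% O2 and 69.3 and 68.1 at 20% O2 under shCHD4, against 129.7 and 134.0 at 1% O2 and 118.7 and 111.3 at 20% O2 under shSC. Its shCHD4 libraries all lay below its shSC libraries. ITGB3 and ITGB8, both partners of ITGAV, were low, at 6.29 to 8.24 and 3.03 to 4.17 normalised read counts in shCHD4 libraries and 7.91 to 11.4 and 2.79 to 4.38 in shSC libraries.

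Among the laminin receptors, ITGA3 had 1043 and 1025 normalised read counts at 1% O2 and 934.4 and 975.2 at 20% O2 under shCHD4, against 1196 and 1207 at 1% O2 and 995.0 and 948.3 at 20% O2 under shSC. The labels overlapped at 20% O2 and not at 1% O2. ITGA6, the alpha partner of both ITGB1 and ITGB4, had 378.0 and 371.9 at 1% O2 and 320.6 and 320.1 at 20% O2 under shCHD4. The shSC libraries had 846.4 and 856.5 of it at 1% O2 and 700.3 and 721.5 at 20% O2, so that all shSC values lay above all shCHD4 values. ITGB4, which with ITGA6 builds hemidesmosomes and binds laminin, had 121.3 and 116.1 at 1% O2 and 55.2 and 59.1 at 20% O2 under shCHD4, against 102.3 and 109.1 at 1% O2 and 43.2 and 38 at 20% O2 under shSC. Here the O2 levels separated under both labels by more than the labels did. GALK1 lies on the opposite strand of ITGB4, and without knowledge of the strand used in counting the reads of such a pair cannot be told apart. The same holds for LAMA5 with ADRM1, LAMB1 with DLD and ITGB2 with ITGB2-AS1. Other overlapping genes include HASPIN, on the opposite strand of ITGAE, and PELO, on the same strand as ITGA1. Their part in the reads of these members was not tested.

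Of the collagen receptors, ITGA2 had 247.9 and 246.8 normalised read counts at 1% O2 and 191.8 and 209.7 at 20% O2 under shCHD4, against 656.7 and 614.5 at 1% O2 and 512.9 and 532.1 at 20% O2 under shSC. ITGA1 had 28.6 and 30.1 at 1% O2 and 30 and 33.6 at 20% O2 under shCHD4, against 61.7 and 54.8 at 1% O2 and 59.7 and 60.7 at 20% O2 under shSC. Both were lower in every shCHD4 library than in any shSC library, but the O2 levels of ITGA1 overlapped under each label. ITGA10 went the other way, with 8.55 to 11.6 in shCHD4 libraries and 3.56 to 5.83 in shSC libraries.

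The shared subunit ITGB1 was nearly level between labels. It had 2495 and 2515 normalised read counts at 1% O2 and 2204 and 2195 at 20% O2 under shCHD4, against 2356 and 2395 at 1% O2 and 1979 and 2056 at 20% O2 under shSC. Both 1% libraries exceeded both 20% libraries under each label. Of the subunits best known from leukocytes, ITGB2 had 36.4 and 37.7 at 1% O2 and 35.2 and 35 at 20% O2 under shCHD4, against 34.4 and 35.1 at 1% O2 and 31 and 30 at 20% O2 under shSC. ITGAE, which with ITGB7 binds E-cadherin on epithelia, had 17.2 and 17.6 at 1% O2 and 20.9 and 19.1 at 20% O2 under shCHD4, against 13.5 and 14.2 at 1% O2 and 17.3 and 15 at 20% O2 under shSC. It was lower in both 1% libraries than in both 20% libraries under each label. Neither difference with O2 passed the test (limma adjusted p = 0.0989 under shCHD4 and 0.0589 under shSC).

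LAMA3 and LAMB3 encode chains of the laminin that anchors epithelia to their basement membrane. LAMB3 had 872.0 and 867.5 normalised read counts at 1% O2 and 688.9 and 693.3 at 20% O2 under shCHD4, against 1190.3 and 1181 at 1% O2 and 669.8 and 639.0 at 20% O2 under shSC. Its 2 labels differed at 1% O2 and lay close together at 20% O2. LAMA3 had 15.4 and 14.7 at 1% O2 and 15.1 and 15.2 at 20% O2 under shCHD4, against 25.8 and 23.2 at 1% O2 and 28 and 25.9 at 20% O2 under shSC. It separated by label and not by O2 level under shCHD4.

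Of the remaining laminin chains, LAMA5, LAMB1, LAMB2 and LAMC1 belong to laminins found in many basement membranes. LAMA5 had 399.1 and 358.8 normalised read counts at 1% O2 and 303.6 and 359.2 at 20% O2 under shCHD4, against 208.5 and 206.9 at 1% O2 and 158.9 and 153.8 at 20% O2 under shSC. It was the one abundant chain that was higher in all shCHD4 libraries by a wide margin, and its O2 levels overlapped there. LAMB1 had 59.9 and 57.3 at 1% O2 and 45.6 and 45.3 at 20% O2 under shCHD4, against 51.2 and 47.2 at 1% O2 and 36.9 and 34.9 at 20% O2 under shSC. LAMB2 had 266.9 and 253.8 at 1% O2 and 215.1 and 226.2 at 20% O2 under shCHD4, against 386.9 and 383.1 at 1% O2 and 339.6 and 319.4 at 20% O2 under shSC. These 2 beta chains thus lay on opposite sides between labels and on the same side between O2 levels; a pseudogene of LAMB2, LAMB2P1, is also in the table and could share its reads. LAMC1 had 445.8 and 445.4 at 1% O2 and 389.4 and 412.1 at 20% O2 under shCHD4, against 616.7 and 586.2 at 1% O2 and 527.8 and 520.5 at 20% O2 under shSC. LAMA1, LAMA2 and LAMA4 were scarce, at 2.09 to 2.78, 1.17 to 1.46 and 1.28 to 2.37 in shCHD4 libraries, and 2.32 to 2.97, 1.78 to 2.02 and 5.18 to 5.83 in shSC libraries.

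Most tested members were higher at 1% than at 20% O2 under both labels. Under the shCHD4 label 15 of 24 rose and none fell at a limma adjusted p under 0.05, against 12.3% of all tested genes that rose, 10.7% that fell and 23% in either direction. Under the shSC label 15 rose and 2 fell (ITGA10 and ITGB8), against backgrounds of 17.4%, 17.9% and 35.2%. Neither fall passed with no filter on low values, with DESeq2 or without shSC replicate 2 at 20% O2. ITGA10 also did not pass without shSC replicate 2 at 1% O2, nor ITGB8 without shSC replicate 1 at 1% O2. The median member was higher by 0.22 on the log2 scale under shCHD4 and by 0.21 under shSC, while the median of all tested genes was -0.0037 under shCHD4 and -0.011 under shSC. The 13 members that rose under both labels were FN1, ITGA2, ITGA5, ITGA6, ITGB1, ITGB3, ITGB4, ITGB5, LAMA5, LAMB1, LAMB2, LAMB3 and LAMC1. Under shCHD4 the rises of ITGB1, ITGB3, LAMA5 and LAMC1 did not pass with no filter on low values. That of ITGB3 also did not pass with DESeq2, nor did those of LAMA5 and LAMC1 with no variance trend. The rise of ITGAV under shCHD4, 0.21 on the log2 scale, passed neither with no filter nor with no variance trend. It was 0.17 without shCHD4 replicate 1 at 20% O2. Leaving out 1 shCHD4 library gave 0.26 to 0.35 for ITGB3, against 0.31 with all. LAMC1 went from 0.15 to 0.11 without shCHD4 replicate 1 at 20% O2. Of all tested genes 8.09% rose under both labels, and 6.88% fell under both, which no member did.

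By role, 4 of 5 tested RGD-binding subunits rose under shCHD4 and 3 of 5 under shSC. Over all tested genes 12.3% rose and 10.7% fell under shCHD4, and 17.4% rose and 17.9% fell under shSC. The roles hold few genes, and their counts were not tested against these shares. Of the 3 tested laminin receptor subunits, 2 rose under shCHD4 and all 3 under shSC. Collagen receptors gave 1 rise of 3 under each label, ITGA2, with ITGA10 falling under shSC. Of 9 tested laminin chains, 6 rose under shCHD4 and 5 under shSC, and none fell under either. LAMA1, LAMA2 and LAMA3 passed under neither label, and LAMA4, a chain of vascular and mesenchymal laminins, rose under shCHD4 with a log2 difference of 0.53 and had one of -0.10 (-0.38 to 0.17) under shSC. The rise of LAMA4 did not pass with DESeq2.

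The hemidesmosome subunit ITGB4 had the largest change with O2. It was 2.07-fold higher at 1% O2 under the shCHD4 label, a log2 difference of 1.05 (95% interval 0.92 to 1.18, limma adjusted p = 4.34e-10). Under the shSC label it was 2.59-fold higher, a log2 difference of 1.37 (SE 0.0617, limma adjusted p = 7.58e-12). No other member changed as much as 2-fold with O2. LAMB3 rose 1.26-fold under shCHD4 (log2 0.33, 0.25 to 0.42, limma adjusted p = 1.1e-05) and 1.81-fold under shSC (log2 0.86, 0.77 to 0.94, limma adjusted p = 1.29e-11). LAMA3, the alpha chain of the same laminin, had log2 differences of -0.014 (-0.18 to 0.15) under shCHD4 and -0.14 (-0.30 to 0.025) under shSC.

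Fibronectin and its receptor subunit moved modestly. FN1 was 1.26-fold higher at 1% O2 under shCHD4 (limma adjusted p = 8.39e-05) and 1.16-fold higher under shSC (limma adjusted p = 0.00202). ITGA5 was 1.18-fold higher under shCHD4 and 1.49-fold higher under shSC. Of the laminin receptors ITGA6 was 1.17-fold and 1.20-fold higher under shCHD4 and shSC, and ITGA3 was 1.24-fold higher under shSC, with 1.08-fold and a limma adjusted p of 0.0552 under shCHD4. The collagen receptor ITGA2 was 1.23-fold and 1.22-fold higher, LAMB1 1.29-fold and 1.36-fold, LAMB2 1.18-fold and 1.17-fold, and ITGB5 1.23-fold and 1.15-fold under shCHD4 and shSC. ITGB1 rose 1.14-fold and 1.18-fold and LAMC1 1.11-fold and 1.15-fold. ITGB2 rose 1.14-fold under shSC and had a log2 difference of 0.077 (-0.048 to 0.20) under shCHD4. Its rise under shSC, 0.19 on the log2 scale, did not pass with DESeq2. It was 0.16 without shSC replicate 2 at 20% O2.

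Small changes depended on the scaling. With quantile normalization, FN1, ITGA6 and ITGB1 no longer passed under shSC, at log2 differences of 0.019, 0.087 and 0.10. ITGB1 and LAMA5 no longer passed with it under shCHD4, at 0.067 and 0.17. The rise of LAMA5 under shCHD4, 0.20 on the log2 scale, did not pass without replicate 1 of the 1% group (0.12) or without replicate 1 of the 20% group (0.075), and was 0.32 without replicate 2 of the 20% group.

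**Figure D2:**
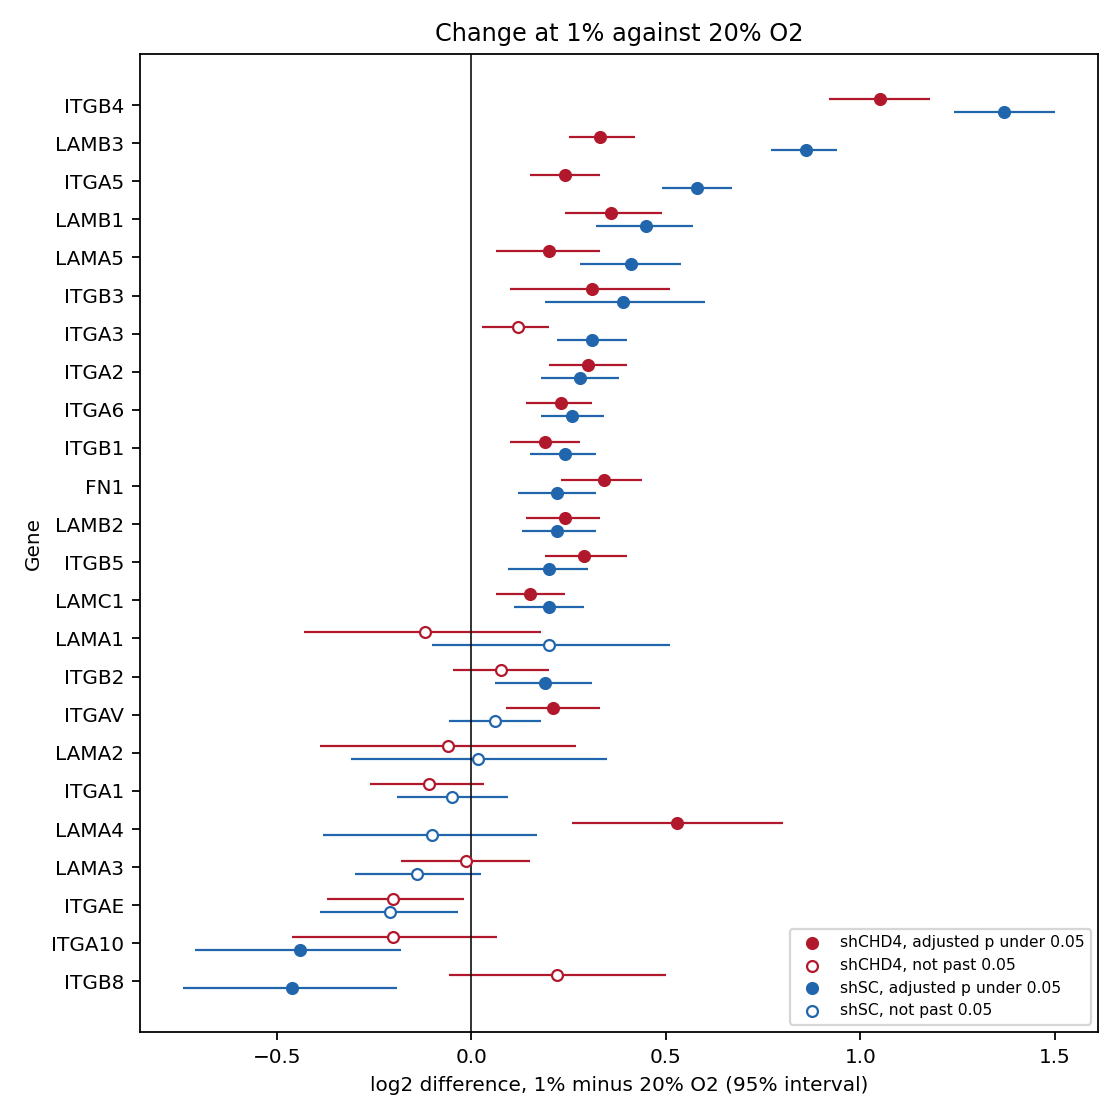
Log2 difference between 1% and 20% O2 (1% minus 20%, horizontal axis) of the 24 tested members, with 95% intervals, in red under the shCHD4 label and in blue under the shSC label; filled points passed a limma adjusted p of 0.05. Most points lie right of 0 under both labels, ITGB4 is farthest right at 1.05 and 1.37, and the blue points of LAMB3 and ITGA5 lie right of the red ones.

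The response to O2 was smaller under the shCHD4 label for 3 members and higher for 1, in the test of the difference of responses (interaction). Over all tested genes 2.21% had a higher response under shCHD4, 2.14% a lower one and 4.36% either. LAMB3 had the smallest p of these 4 and responded by 0.53 less on the log2 scale under shCHD4 (a difference of -0.53, 95% interval -0.65 to -0.41, limma adjusted p = 1.79e-05). For ITGA5 the difference was -0.34 (-0.46 to -0.21, limma adjusted p = 0.00316) and for ITGB4 -0.32 (-0.51 to -0.14, limma adjusted p = 0.0434). ITGB8, a low gene that activates latent TGF-beta as a partner of ITGAV, had a difference of 0.69 (0.29 to 1.08, limma adjusted p = 0.0448), with responses of 0.22 under shCHD4 and -0.46 under shSC. The call of LAMB3 held under all 18 alternative settings. ITGA5 missed the threshold only without a variance trend, ITGB4 missed it under 10 of 18 alternatives, and ITGB8 under 11 of 16.

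The other members had no call. FN1 responded by 0.12 more under shCHD4 (-0.028 to 0.26), a difference that with quantile normalization was 0.26 and passed (limma adjusted p = 0.0303, from 0.0303 to 0.756 over its alternatives). ITGA6 differed by -0.033 (-0.15 to 0.084), ITGA2 by 0.02 (-0.12 to 0.16) and ITGB1 by -0.048 (-0.17 to 0.076). For LAMA4 the difference was 0.64 (0.25 to 1.02, limma adjusted p = 0.0553), and it passed with no variance trend (limma adjusted p = 0.0468). ITGA3 differed by -0.19 (-0.32 to -0.067, limma adjusted p = 0.0769), and by -0.20 with DESeq2, where it passed. Without shSC replicate 1 at 20% O2, the difference of ITGAV went from 0.15 to 0.25. That of LAMA5 went from -0.21 to -0.33 without shCHD4 replicate 1 at 20% O2.

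Between labels most members fell in the shCHD4 libraries. At 1% O2 14 of 24 fell and 6 rose, against 39.2% of all tested genes that fell, 38.2% that rose and 77.4% in either direction. At 20% O2 13 fell and 7 rose, against 38.6%, 37% and 75.6%. Since over 3 in 4 of all genes differed between labels, the share of members that differed (83.3% at each O2 level) is close to the background. The median member differed by -0.44 on the log2 scale at 1% O2 and -0.32 at 20% O2 in the shCHD4 libraries, where the medians of all tested genes were -0.0067 and -0.0091. Both label comparisons use the same libraries as the O2 comparisons. The 12 members that fell at both O2 levels were FN1, ITGA1, ITGA2, ITGA5, ITGA6, ITGB3, ITGB5, LAMA2, LAMA3, LAMA4, LAMB2 and LAMC1, against 34.7% of all tested genes. Among these, LAMA2, at 1.17 to 2.02 normalised read counts, did not pass with DESeq2 at either O2 level. The 5 that rose at both were ITGA10, ITGAE, ITGB4, LAMA5 and LAMB1, against 33.4% of all tested genes. ITGAE at 20% O2, 0.30 on the log2 scale, was 0.24 without shCHD4 replicate 1 and 0.20 without shSC replicate 2.

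Fibronectin and the receptor subunit for it fell together. FN1 was 3.06-fold lower in shCHD4 libraries at 1% O2 (log2 -1.61, 95% interval -1.72 to -1.51, limma adjusted p = 1.19e-15) and 3.32-fold lower at 20% O2 (log2 -1.73, -1.83 to -1.63, limma adjusted p = 4.17e-16). ITGA5 was 4.27-fold lower at 1% O2 (log2 -2.10, -2.19 to -2.01, limma adjusted p = 4.03e-18) and 3.38-fold lower at 20% O2 (log2 -1.76, -1.85 to -1.67, limma adjusted p = 4.6e-17). ITGAV, by contrast, was 1.20-fold lower at 20% O2 and had a limma adjusted p of 0.0774 at 1% O2, and ITGB5 was 1.56-fold and 1.67-fold lower at 1% and 20% O2. The fall of ITGAV at 20% O2, -0.26 on the log2 scale, was -0.16 without shSC replicate 2 and still passed.

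Laminin and collagen receptors did not move as 1 group. ITGA6 was 2.27-fold lower at 1% O2 and 2.22-fold lower at 20% O2 in shCHD4 libraries, and ITGA2 was 2.56-fold and 2.60-fold lower. ITGA1 was 1.97-fold and 1.88-fold lower, whereas the collagen receptor ITGA10 was 2.09-fold and 1.76-fold higher. ITGB4 was 1.12-fold higher at 1% O2 and 1.40-fold higher at 20% O2; its call at 1% O2 did not pass without shCHD4 replicate 1 or without shSC replicate 1. ITGA3 was 1.16-fold lower at 1% O2, a fall that with quantile normalization became a log2 difference of 0.012 that did not pass. At 20% O2 its log2 difference was -0.025 and did not pass, and with quantile normalization it was 0.10 and passed (limma adjusted p = 0.0241, from 0.0241 to 0.931 over its alternatives). ITGB1 was 1.09-fold higher at 20% O2 and did not pass at 1% O2, nor at 20% O2 with quantile normalization.

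Of the laminin chains LAMA4 was 2.1-fold and 3.26-fold lower, LAMA3 1.61-fold and 1.75-fold, LAMB2 1.48-fold and 1.49-fold, and LAMC1 1.35-fold and 1.31-fold lower at 1% and 20% O2. LAMB3 was 1.36-fold lower at 1% O2. At 20% O2 its log2 difference was 0.079 and did not pass, but it passed with quantile normalization (0.18), with DESeq2 and without shSC replicate 1 at 20% O2, with adjusted p from 0.000363 to 0.39 over its alternatives. LAMA5 stood apart as 1.82-fold higher at 1% O2 (log2 0.86, 0.73 to 1.00, limma adjusted p = 4.4e-10) and 2.11-fold higher at 20% O2 (log2 1.08, 0.94 to 1.21, limma adjusted p = 1.96e-11). LAMB1 was 1.19-fold and 1.26-fold higher.

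**Figure D3:**
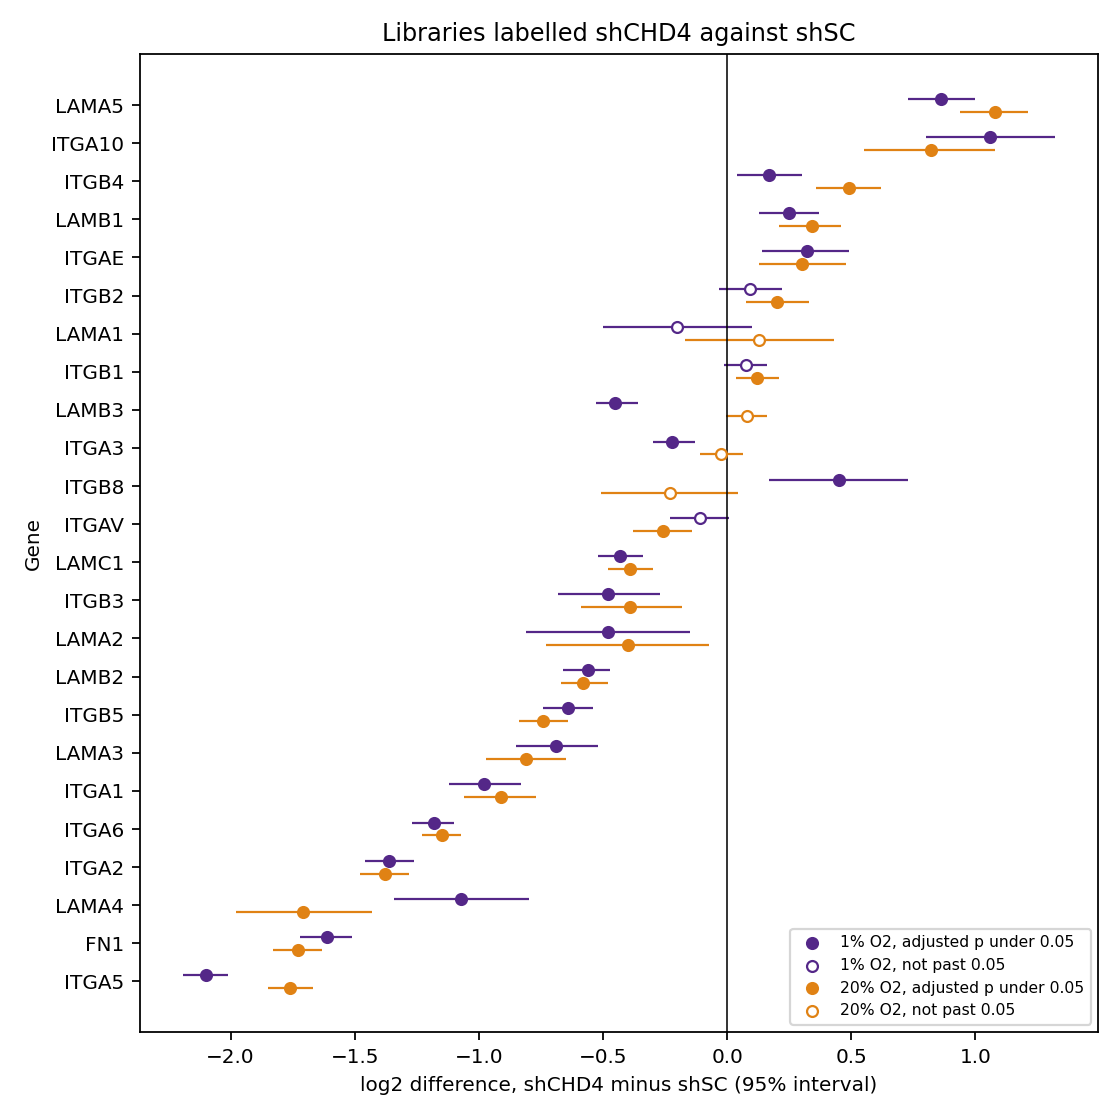
Log2 difference between libraries labelled shCHD4 and shSC (shCHD4 minus shSC, horizontal axis) of the 24 tested members, with 95% intervals, in purple at 1% O2 and in orange at 20% O2; filled points passed a limma adjusted p of 0.05. ITGA5 and FN1 lie farthest left at 20% and at 1% O2, LAMA5 and ITGA10 farthest right, and the 2 O2 levels give nearby values for most genes except LAMB3, ITGA5, LAMA4 and ITGB8.

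The make-up of each family was described by the share of every gene in the family's reads per kb of the longest coding transcript, with no test. ITGA3 made up 57.8% and 59.5% of alpha subunits in shCHD4 libraries at 1% and 20% O2, against 39.3% and 39.6% in shSC libraries. ITGA5 made up 7.44% and 7.02% in shCHD4 libraries, against 18.7% and 15.6% in shSC libraries, and ITGA6 18.2% and 17.4%, against 24.2% and 25.2%. The alpha subunits of the shCHD4 libraries were thus more weighted to ITGA3. The shares depend on the length used. Per kb of all exons, ITGA3 stood below ITGA6 in shSC libraries, at 122.6 against 130.3 at 1% O2 and 99.1 against 108.8 at 20% O2. In shCHD4 libraries it stayed above ITGA6, at 105.5 against 57.4 and 97.4 against 49. LAMA5 made up 94% and 93.4% of laminin alpha chains in shCHD4 libraries, against 83.5% and 78.1% in shSC libraries, and LAMA3 4% and 4.61%, against 10.6% and 14.4%. ITGB4 took 2.8% and 1.56% of beta subunits at 1% and 20% O2 under shCHD4, and 2.59% and 1.19% under shSC.

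**Figure D4:**
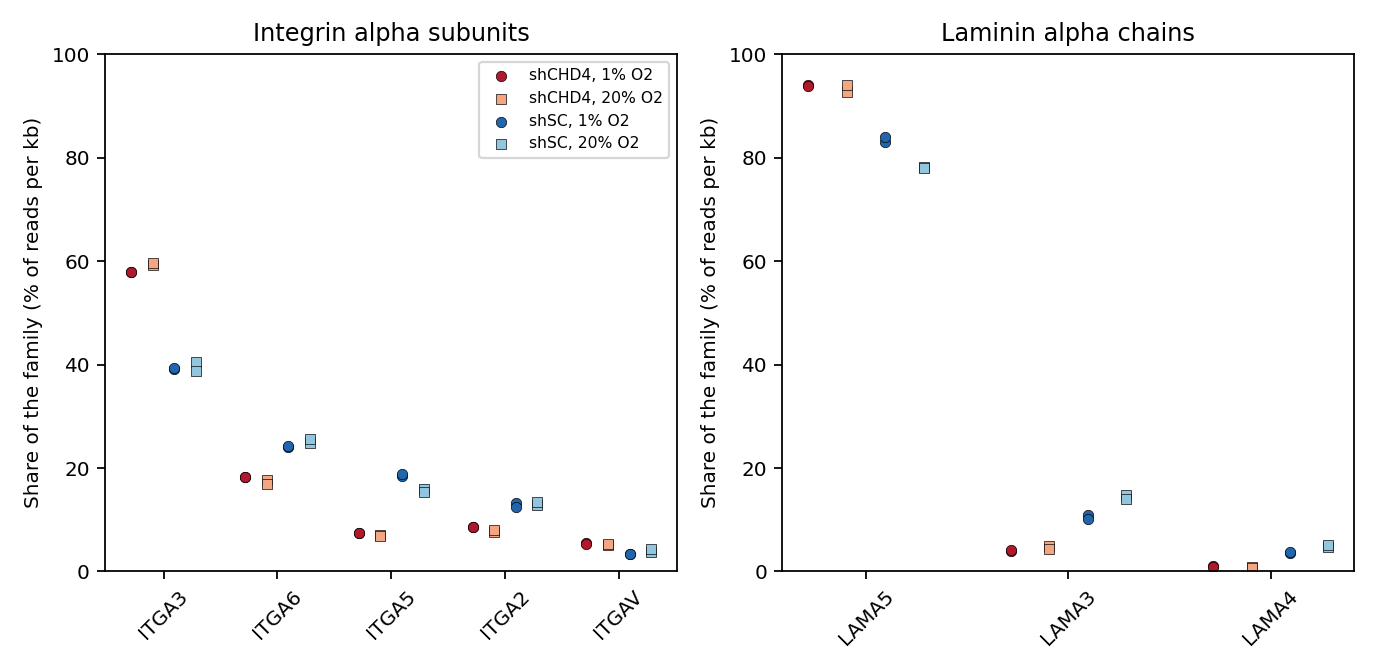
Share of each gene in the reads per kb of its family (percent, vertical axis) for integrin alpha subunits and laminin alpha chains, with each point 1 library; circles are 1% O2 and squares 20% O2, red shades shCHD4 and blue shades shSC. ITGA3 and LAMA5 take larger shares in the shCHD4 libraries, and ITGA5, ITGA6, ITGA2 and LAMA3 take smaller ones.

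The genes that work with integrins inside the cell, at its surface and in the matrix were taken as 3 further lists. Of 23 tested adhesion adaptors and kinases 3 rose at 1% O2 under shCHD4 and 7 under shSC, with none falling and medians of -0.00028 and 0.087 on the log2 scale. Their called share of 13% under shCHD4 and 30.4% under shSC lay below the 23% and 35.2% of all tested genes in either direction. In rises alone, the share of all tested genes was 12.3% under shCHD4 and 17.4% under shSC. The 3 that rose under shCHD4 were the kindlins FERMT1 and FERMT3, which activate integrins, and the adaptor LIMS2. FERMT1 was 1.18-fold higher under shCHD4 and 1.60-fold higher under shSC, and its response was 0.44 lower on the log2 scale under shCHD4 (a difference of -0.44, limma adjusted p = 0.00226). Of 11 tested membrane partners 3 rose under shCHD4, and 7 rose and 2 fell under shSC. These were called shares of 27.3% and 81.8%, against 23% and 35.2% of all tested genes. PLAUR, the urokinase receptor, was 1.19-fold and 1.55-fold higher under shCHD4 and shSC, and CD151, a tetraspanin that binds laminin-receptor integrins, 1.14-fold and 1.29-fold. The responses of PLAUR and of the tetraspanin CD9 were lower under shCHD4, by differences of -0.39 and -0.34. Of 15 other tested matrix ligands 4 rose and 2 fell under shCHD4, and 2 rose and 3 fell under shSC. Their called shares were 40% and 33.3%, against the same 23% and 35.2%. COL17A1, a hemidesmosome collagen, was 1.24-fold and 1.85-fold higher under shCHD4 and shSC, with a difference of responses of -0.57 (limma adjusted p = 0.00487).

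Between labels these lists moved in both directions. The adaptors and kinases had 73.9% called at 1% O2 and 82.6% at 20% O2, near the 77.4% and 75.6% of all tested genes. The matrix ligands had 93.3% called at each O2 level and the membrane partners 72.7% and 100%. Of the adaptors and kinases 5 rose and 12 fell at 1% O2 and 7 rose and 12 fell at 20% O2, of which the kinase SRC was 9.05-fold and 9.68-fold lower in shCHD4 libraries and the kindlin FERMT2 2.38-fold and 2.33-fold lower. ACTN4, an actin crosslinker, was 1.83-fold and 1.77-fold higher. Of the matrix ligands 6 rose and 8 fell at each O2 level, with the tenascin TNC 8.64-fold and 9.29-fold lower, the secreted growth factor CTGF 3.29-fold and 3.57-fold lower and the thrombospondin THBS1 2.90-fold and 3.31-fold lower. Of the membrane partners 2 rose and 6 fell at 1% O2 and 4 rose and 7 fell at 20% O2. BCAM, a laminin receptor outside the integrin family, was 3.96-fold and 3.93-fold lower, and SDC4, a proteoglycan that assists fibronectin binding, was 2.19-fold and 2.08-fold lower.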

How the data were processed

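Polyadenylated RNA of 8 MDA-MB-231 libraries, 2 in each of 4 groups, was measured. Per the submitters' processing notes the software was bcl2fastq 2.17, FastQC 0.11.2, TopHat, Picard 1.127, featureCounts and edgeR, on human build hg19. Annotation and strandedness were not stated in the labels. The deposited values, named as FPKM, were a signal that the authors had made by dividing whole reads by 1 factor per library: 100% of values came out whole within 0.01 reads, and the reads were recovered from it. The tests had been planned for FPKM and were kept.

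The 12645 genes with a mean of at least 1 entered limma 3.58.1 (R 4.3.3) as log2(value + 0.5). A single model of group means took all 8 libraries, with a variance trend; it had 4 residual and, by moderation, 13.9 prior degrees of freedom. Two-sided p-values were adjusted by Benjamini-Hochberg over all tested genes and called at 0.05. The 5 comparisons set 1% against 20% O2 within each label, shCHD4 against shSC within each O2 level, and the O2 responses of the labels against each other. Fold changes on this scale understate changes of low genes. The method was tested on simulated counts with log2 changes of 0.5 and 1 in either direction. This was read only for 1% against 20% O2 under shCHD4, in genes with a mean of at least 10. Smaller changes were not simulated, and lower genes and the interaction were not read. Alternatives were pseudocounts of 0.1 and 1, no filter, a minimum of 5, no variance trend, TMM and quantile scaling, edgeR 4.0.16 and DESeq2 1.42.0 on recovered reads, a replicate block and leaving out each library; a crossed replicate block was added after the data were seen.

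The members, lists and tests were chosen with earlier results of these data known. An item that the rule on symbols also takes is not reported here and is left out of the members' counts; it stayed in the fit. Values in all libraries are given for members with a mean of at least 10 that passed in at least 1 comparison, and fuller statistics for at most 10 per comparison by smallest p. Of each further list up to 3 members with the smallest p in a comparison are named. Names turned into dates (27 rows) and repeated names (2) stayed in the fit without being named. Lengths per kb are those of GENCODE transcripts of GRCh38.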

Additional observations from a re-analysis of the deposited data

Results flagged for a closer look

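The response to 1% O2 differed between the labels for 4 members, by the test of the difference itself. LAMB3 responded by 0.33 on the log2 scale under shCHD4 and 0.86 under shSC, a difference of -0.53. ITGA5 responded by 0.24 under shCHD4 and 0.58 under shSC, a difference of -0.34. ITGB4 responded by 1.05 under shCHD4 and 1.37 under shSC, a difference of -0.32. ITGB8 responded by 0.22 under shCHD4, without passing, and by -0.46 under shSC, a difference of 0.69 at 2.79 to 4.38 normalised read counts. With 2 libraries in each group, no group was large enough to test a single library as an outlier.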

How the results depend on the processing

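Of the member calls, 9 of 15 for O2 under shCHD4, 10 of 17 under shSC, 17 of 20 between labels at 1% O2, 17 of 20 at 20% O2 and 1 of 4 in the interaction held under every alternative run. The 4 members called in the interaction became 2 with no filter on low values and 2 with no variance trend, and 2 to 6 when 1 library was left out. With quantile normalization the sign turned for ITGA3 between labels, to 0.012 at 1% and 0.10 at 20% O2, where it then passed (limma adjusted p = 0.0241), for ITGAV between labels at 1% O2, to 0.017, and for LAMA2 with O2 under shSC, to -0.037; the cause was not tested. When 1 library was left out, uncalled values crossed 0 for O2 under shSC in ITGA1 (-0.13 to 0.035), ITGAV (-0.04 to 0.16) and LAMA2 (-0.051 to 0.085), for O2 under shCHD4 in LAMA1 (-0.30 to 0.047), LAMA2 (-0.17 to 0.054) and LAMA3 (-0.048 to 0.019), and between labels at 20% O2 in ITGA3 (-0.06 to 0.0095). A group left with 1 library was assumed to vary like the others. Over all genes, 2903 calls for O2 under shCHD4 became 1920 with no filter, 1815 with no variance trend, and 1326, 1451 and 1344 without shCHD4 replicate 1 at 1% O2, replicate 2 at 1% O2 and replicate 1 at 20% O2. The 551 interaction calls became 155 with no filter and 155 with no trend, and 245 to 994 with 1 library left out. Replicate numbers did not pair the libraries (correlations of deviations from -0.121 to 0.124), and with the replicate block the member counts stayed 15, 17, 20, 20 and 4; the crossed replicate block gave 15 members and 2823 genes for O2 under shCHD4. No scaling moved the median of all genes by 0.1. DESeq2 gave no adjusted p for some low members. With 2 libraries a group and members under 1 count, small changes could not be seen.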

Other observations

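Among the members too scarce to test, ITGAD, an alpha subunit of leukocyte integrins, held 39 and 29 reads over the 2 shCHD4 libraries at 1% and at 20% O2, and 0 and 1 reads in the shSC libraries. ITGA7, a laminin receptor subunit best known from muscle, held 44 and 24 reads in shCHD4 libraries at 1% and 20% O2, and 13 and 11 in shSC libraries. ITGB7 held 2 and 0 reads under shCHD4, and 9 and 0 under shSC, so that its reads lay at 1% O2. Reads of ITGA7 and ITGB7 may include those of genes on the opposite strand. COL4A5, a basement membrane collagen chain from the list of matrix ligands, had 0 reads in all 4 shCHD4 libraries, against 628 and 529 reads over the 2 shSC libraries at 1% and at 20% O2. These 4 genes were singled out after their values were seen, and no test was run on the first 3.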
